A study of Mus musculus with 19 samples.

Results

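A set of 10 genes that mark vascular endothelium, the cells lining blood vessels, were followed through dorsal root ganglia of mice with or without knee osteoarthritis and with or without the drug AP20187. The members were taken by name from the deposited table of counts and FPKM, and all 10 of the 10 names were found among its 36682 genes. The genes were Pecam1, Cdh5, Cldn5, Kdr, Flt1, Tek, Eng, Vwf, Plvap and Emcn, and all 10 passed the filter on low counts. Every mouse was a male, homozygous for the macrophage Fas-Induced apoptosis (MaFIA) transgene, which the controls carried too. In this strain the Csf1r promoter drives a Fas-based suicide receptor that AP20187 crosslinks, so the drug is used to deplete macrophages and related myeloid cells. The model of osteoarthritis was DMM surgery (destabilization of the medial meniscus), an operation on the knee, and operated mice were studied 8 weeks after it. Naive mice were matched to them in age. AP20187 or its vehicle was injected intraperitoneally on each of 5 days in a row. The L3-L5 ganglia, which hold the cell bodies of sensory neurons, were taken from the side of the knee and pooled per mouse. The groups were 5 naive vehicle, 4 naive AP20187, 5 DMM vehicle and 5 DMM AP20187 mice, 19 libraries in all. The labels name a mouse number for each library and no batch, so p-values measure the spread between these mice.

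Endothelial cells hold the vessel wall together through adhesion molecules at their junctions, among them VE-cadherin, claudin-5 and PECAM-1. They receive growth and stability signals through the VEGF receptors, the angiopoietin receptor TIE2 and the TGF-beta co-receptor endoglin, and they store von Willebrand factor for clotting. In sensory ganglia the capillaries around the neuronal cell bodies are fenestrated and more permeable than those of the nerve trunk. Several of the 10 genes are not exclusive to endothelium: Pecam1 is also made by leukocytes and platelets, and Vwf by megakaryocytes, so markers of those cells are given beside the results.

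The start-site sequences of Emcn, Tek and Flt1 are shown because the first pair rose with AP20187 in both naive and DMM mice and Flt1 did not pass the test in either. Each is the 250 bases before the gene's start in RefSeq (GRCm38.p6), written 5′ to 3′ on the gene's strand. Emcn lies on the plus strand at chr3:137340828-137341077, Tek on the plus strand at chr4:94739039-94739288 and Flt1 on the minus strand at chr5:147726012-147726261. Capitals mark matches, on either strand, to AGGAAG or CGGAAG, spellings of the site bound by ETS factors such as Erg, and to AACAGGAA, a longer ETS spelling.
Emcn: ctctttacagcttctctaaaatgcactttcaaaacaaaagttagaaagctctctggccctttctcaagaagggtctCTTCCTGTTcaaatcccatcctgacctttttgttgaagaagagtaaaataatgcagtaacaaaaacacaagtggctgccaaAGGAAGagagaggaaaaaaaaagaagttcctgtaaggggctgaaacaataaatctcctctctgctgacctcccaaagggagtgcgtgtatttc
Tek: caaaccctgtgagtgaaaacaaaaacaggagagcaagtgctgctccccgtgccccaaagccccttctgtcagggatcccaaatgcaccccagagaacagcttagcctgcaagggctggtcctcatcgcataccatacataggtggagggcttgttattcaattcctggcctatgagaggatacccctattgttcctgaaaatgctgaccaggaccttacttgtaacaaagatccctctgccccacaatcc
Flt1: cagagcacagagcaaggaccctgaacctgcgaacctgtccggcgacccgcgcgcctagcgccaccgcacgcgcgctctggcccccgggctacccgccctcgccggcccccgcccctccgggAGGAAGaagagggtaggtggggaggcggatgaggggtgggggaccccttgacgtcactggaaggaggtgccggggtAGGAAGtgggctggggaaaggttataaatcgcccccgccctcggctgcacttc
The Emcn stretch held 2 matches to AGGAAG, one of them overlapping its 1 match to AACAGGAA. Flt1 held 2 matches to AGGAAG, and the Tek stretch held no match to any of these spellings. RefSeq sequences were matched for 6 of the 10 genes (these 3 with Cldn5, Eng and Kdr), and 3 of the 6 held AGGAAG or CGGAAG, as did 39.2% of 32851 promoters of that length. AGGAAG alone was in 29.5% of them, CGGAAG in 13.6% and AACAGGAA in 2.25%. These matches describe the letters in the window. By edgeR with all mice kept, Emcn, with matches, and Tek, without, were called in both DMM and naive mice. Of the genes called in neither, Flt1 and Eng held matches and Cldn5 and Kdr held none.

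Libraries held 60984830 to 74691396 counts over genes, and the 10 most abundant genes took 5.56% to 16.1% of a library. Levels below are in CPM, the count divided by the library size after TMM scaling and set to a common total. The labelled tissue was checked by 9 sensory neuron genes, whose summed level was 1607 to 18287 CPM over the libraries. That sum was lower in DMM AP20187 mice, at 1607 to 7654 CPM, than in DMM vehicle mice, at 4933 to 16477 CPM, and 5 of the 9 genes fell there by the test described below. In naive mice the sum was 8516 to 18287 CPM with vehicle and 2416 to 13124 CPM with AP20187, 0 of the 9 genes were called by edgeR and 0 had an unadjusted p under 0.05. Markers of granulocyte precursors moved the other way, from 369 to 7280 CPM in DMM vehicle mice to 16664 to 28783 CPM in DMM AP20187 mice, and from 768 to 2125 CPM to 7942 to 27208 CPM in the naive pair, with 9 and 10 of the 10 genes called higher. The macrophage list of 10 genes summed to 151 to 630.3 CPM in DMM vehicle, 233 to 978 CPM in DMM AP20187, 83.1 to 454 CPM in naive vehicle and 452 to 766 CPM in naive AP20187 mice. Of its genes, 1 rose in DMM mice, 3 rose in naive mice, and 0 were called lower by edgeR in either. Over all genes, 11.3% were called higher and 12.4% lower in DMM mice, and 8.61% higher and 2.57% lower in naive mice. The macrophage count in DMM mice was close to that background. Against DMM vehicle mice 32 to 34 alone, 8 macrophage genes and 10 granulocyte genes were called higher and 9 neuron genes lower. In that fit 17.5% of all genes were called higher and 18.8% lower. Against DMM vehicle mice 63 and 64 alone the macrophage, granulocyte and neuron counts were 0, 6 and 0 by edgeR, with 1, 9 and 1 at an unadjusted p under 0.05. The shares of all genes called fell as well, to 2.71% higher and 2.02% lower. Without naive vehicle 4, 1 macrophage gene and 10 granulocyte genes were called higher in naive mice, and of the neuron genes 0 were called by edgeR and 1 had an unadjusted p under 0.05. Over all genes 9.73% were then called higher and 2.60% lower.

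One library stood apart in the endothelial genes. Naive vehicle 4 had the highest level of its group for 10 of 10 genes, at 2.37 to 6.27 times the mean of the other 4 vehicle mice (median 3.54). Over all 22778 genes tested, this library was the highest of its group for 26.1%, and 10.1% lay at least 2-fold above the mean of the others. Its summed endothelial level was 720.6 CPM, against 125 to 243 CPM in the other 4, and its pericyte and smooth muscle sum was 665 against 309 to 417 CPM. Its erythroid sum was 13311 CPM, against 3338 to 6321 CPM, and its megakaryocyte and platelet sum 111 against 33.0 to 57.0 CPM. Its granulocyte precursor sum of 2125 CPM was above the 768 to 1574 CPM of the other 4 and below all naive AP20187 mice, and its neuron sum of 8516 CPM was the lowest of the group, where the others ran from 8576 to 18287 CPM. The counts of called genes in naive mice are therefore given with this library and, beside them, without it. The DMM vehicle mice carry numbers 32 to 34 and 63 to 64 and the DMM AP20187 mice 58 to 62, and whether these numbers mark separate cohorts is not said in the labels.

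**Figure D1:**
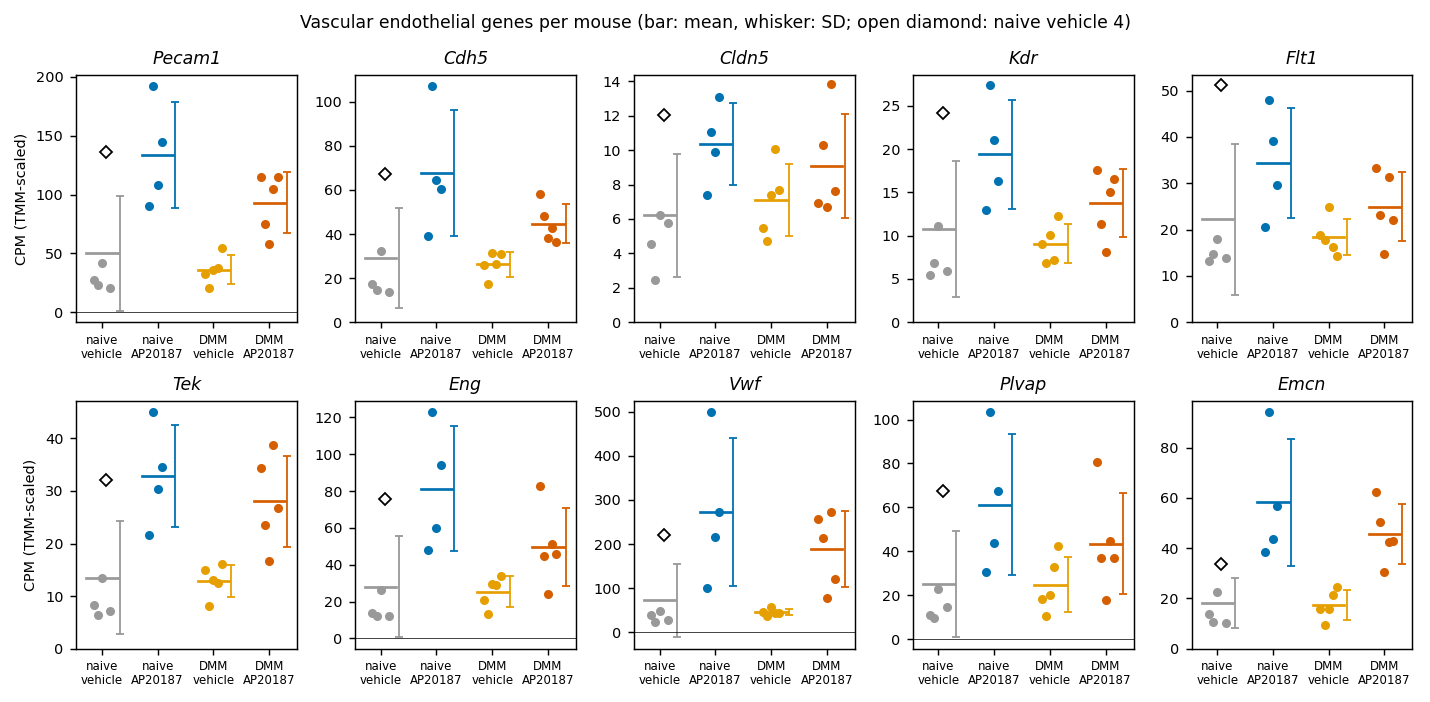
CPM (TMM-scaled, linear axis) of the 10 genes in each of the 19 mice, 1 panel per gene, with the group mean as a bar and the SD as a whisker. Naive vehicle 4, the open diamond, lies among or above the naive AP20187 mice in most panels, while the 4 other naive vehicle mice lie below them in all 10. The share of all genes for which these 4 do so was not computed.

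Compared per length, as FPKM, Plvap was the most abundant of the 10 genes in each group and Kdr and Flt1 the least. Plvap, which forms the diaphragms of fenestrated capillaries, averaged 12.4 ± 12.0 FPKM (SD, n = 5) in naive vehicle, 26.6 ± 13.5 (n = 4) in naive AP20187, 12.6 ± 6.82 (n = 5) in DMM vehicle and 21.5 ± 12.4 (n = 5) in DMM AP20187 mice. Kdr, the main VEGF receptor, averaged 1.16 ± 0.856, 1.85 ± 0.565, 1.01 ± 0.289 and 1.47 ± 0.422 FPKM in the same order. Between these ends, Pecam1, Eng and Cdh5 took 3 of the upper 5 places in every group, Cldn5, Emcn and Tek came lower, and most neighbours in the order differed by less than an SD. A step larger than both neighbours' SDs lay between Tek and Flt1 in all groups but naive vehicle, and also between Cldn5 and Emcn and between Flt1 and Kdr in DMM vehicle mice. Vwf moved most in the order. It was the fifth gene in naive vehicle mice (4.40 FPKM) and the seventh in DMM vehicle mice (2.82 FPKM), and the fourth in both AP20187 groups (14.6 FPKM in naive and 11.5 FPKM in DMM).

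In DMM mice all 10 genes had a higher fitted level with AP20187 than with vehicle, and 4 of the 10 passed the test: Vwf, Emcn, Pecam1 and Tek rose, by log2 fold changes of 2.05, 1.40, 1.36 and 1.12. The test was edgeR's quasi-likelihood F test on counts with Benjamini-Hochberg adjustment over all genes, at an adjusted p of 0.05. Of all genes tested, 11.3% were called higher in this comparison, 12.4% lower and 23.8% in either direction. The median log2 fold change of the 10 genes was 0.89, against -0.10 over all genes. In bulk tissue a larger number of endothelial cells and more of these RNAs per cell cannot be told apart. Nor can RNA of other cells that make Pecam1 or Vwf, or a smaller share of other cells, be told apart from these. CPM is a share of the library, and the neuron sum averaged 12138 CPM in DMM vehicle and 4548 CPM in DMM AP20187 mice.

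Among the junction genes, Pecam1, an adhesion molecule at endothelial contacts, was at 32.6, 20.7, 35.8, 37.7 and 54.5 CPM in DMM vehicle mice 32, 33, 34, 63 and 64. It was at 114, 74.8, 57.8, 104 and 115 CPM in DMM AP20187 mice 58 to 62. The groups did not overlap, and the log2 fold change was 1.36 (SE 0.44, adjusted p = 0.0316 by edgeR). Cdh5, VE-cadherin of the adherens junction, ran from 17.3 to 31.4 CPM with vehicle and from 36.6 to 57.9 CPM with AP20187. These groups too did not overlap, yet the log2 fold change of 0.76 (SE 0.37) had an adjusted p of 0.141 by edgeR. Cldn5, the tight-junction claudin of blood-brain and blood-nerve barriers, overlapped between groups (4.73 to 10.1 CPM with vehicle, 6.67 to 13.8 CPM with AP20187) and had the smallest log2 fold change of the 10, 0.35 (SE 0.33, adjusted p = 0.480 by edgeR).

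Of the receptors, Tek, which encodes TIE2, the receptor of the angiopoietins, was at 14.9, 8.16, 13.0, 12.5 and 16.1 CPM in DMM vehicle mice 32, 33, 34, 63 and 64. With AP20187 it was at 34.3, 23.5, 16.7, 38.7 and 26.9 CPM in mice 58 to 62. The lowest treated mouse, 60, lay just above the highest vehicle mouse, 64, and the log2 fold change was 1.12 (SE 0.38, adjusted p = 0.0393 by edgeR). Kdr, which carries most of the VEGF-A signal, differed by 0.60 on the log2 scale (SE 0.36, adjusted p = 0.242 by edgeR). Flt1, the high-affinity VEGF receptor that also exists as a soluble trap, differed by 0.44 (SE 0.35, adjusted p = 0.387 by edgeR). Eng, the TGF-beta and BMP co-receptor endoglin, ran from 13.3 to 34.1 CPM with vehicle and from 24.2 to 82.9 CPM with AP20187, which is 0.97 on the log2 scale (SE 0.47, adjusted p = 0.140 by edgeR). Each of these 3 receptor genes overlapped between the groups, with DMM AP20187 60 among the vehicle mice for all 3.

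Among secreted and surface products, Vwf, the clotting glycoprotein stored in Weibel-Palade bodies, was at 46.2, 37.3, 56.4, 43.9 and 43.3 CPM in DMM vehicle mice 32, 33, 34, 63 and 64. It was at 257, 215, 76.9, 273 and 122 CPM in DMM AP20187 mice 58 to 62. The vehicle mice were close together, every treated mouse lay above them, and the log2 fold change was 2.05 (SE 0.56, adjusted p = 0.0145 by edgeR). Emcn, endomucin, a sialomucin of capillary and venous endothelium, was at 15.9, 9.40, 15.6, 21.5 and 24.5 CPM with vehicle and at 62.5, 50.6, 30.3, 42.4 and 42.9 CPM with AP20187, in the same order of mice. The groups did not overlap, and the log2 fold change was 1.40 (SE 0.35, adjusted p = 0.00895 by edgeR). Plvap overlapped widely (10.7 to 42.4 CPM with vehicle, 18.0 to 80.7 CPM with AP20187), and its log2 fold change of 0.81 (SE 0.52) had an adjusted p of 0.284 by edgeR. In all, the treated mice lay wholly above the vehicle mice for 5 of the 10 genes (Pecam1, Cdh5, Tek, Vwf and Emcn), as they did for 8.71% of all genes.

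The calls differed in how they held when mice were left out. Vwf and Emcn were called in all 10 fits that each left out 1 DMM mouse. Pecam1 was called in 4 of them and lost without AP20187 mouse 58 or 62 or vehicle mouse 32, 33, 34 or 63. Tek was called in 2 of them, those without AP20187 mouse 60 or vehicle mouse 64. Against DMM vehicle mice 32 to 34 alone, Pecam1, Tek, Vwf and Emcn were called, 4 of the 10, while 36.3% of all genes were called. Against DMM vehicle mice 63 and 64 alone, 0 of the 10 genes passed edgeR's test and 2 had an unadjusted p under 0.05, while 4.73% of all genes were called. The log2 fold changes were then 0.055 to 2.14, all positive, with Vwf at 2.14 and Emcn at 1.01. In vehicle mouse 64 the granulocyte precursor sum was 7280 CPM and the neuron sum 4933 CPM, the highest and the lowest of its group. Lists of other cells were followed in DMM mice as well, where 11.3% of all genes were called higher and 12.4% lower. Against vehicle mice 32 to 34 alone these shares were 17.5% and 18.8%. Against vehicle mice 63 and 64 alone they were 2.71% and 2.02%. The fibroblast count with all vehicle mice was close to its share. The erythroid list summed to 1597 to 26703 CPM with vehicle and 1298 to 5230 CPM with AP20187, and 5 of its 8 genes were called lower (median log2 fold change -1.81), or 7 against vehicle mice 63 and 64 alone and 0 by edgeR, with 0 at an unadjusted p under 0.05, against vehicle mice 32 to 34 alone. Of 8 satellite glia and Schwann cell genes 3 were called lower (median -0.58), or 2 against vehicle mice 32 to 34 alone and 1 against vehicle mice 63 and 64 alone. Of 8 fibroblast genes 1 was called higher (median 0.36), or 4 against vehicle mice 32 to 34 alone (median 1.21) and 0 by edgeR, with 0 at an unadjusted p under 0.05, against vehicle mice 63 and 64 alone. The part of these cell types in the endothelial differences was not tested. With no filter on low counts, the adjusted p was 0.0501 for Pecam1 and 0.0627 for Tek, and Vwf and Emcn were still called by edgeR.

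**Figure D2:**
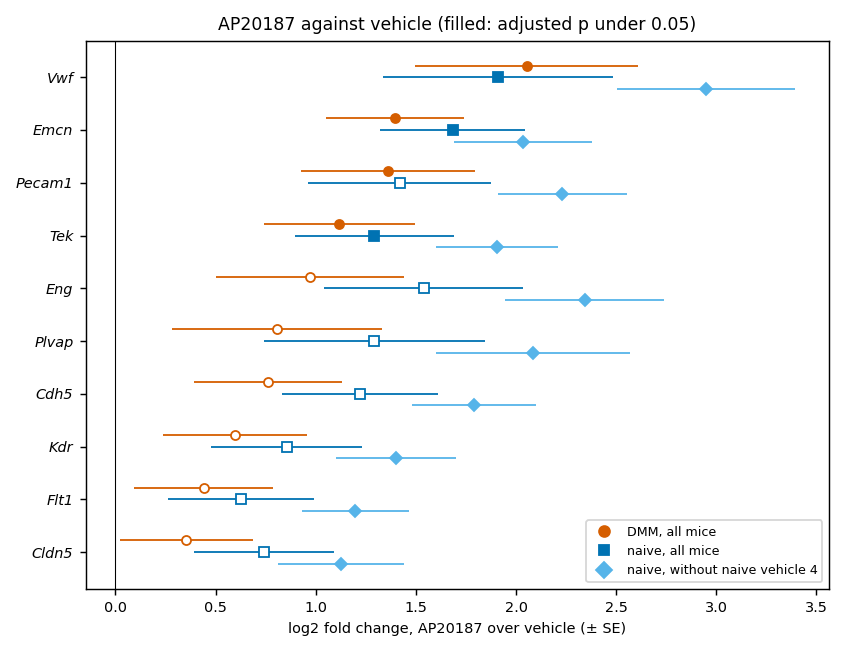
Log2 fold change of AP20187 over vehicle (bars, SE) for the 10 genes in DMM mice, in naive mice, and in naive mice without naive vehicle 4, with filled symbols for an adjusted p under 0.05 by edgeR. All values are above 0, 4 genes are filled in DMM mice, 3 in naive mice and 10 in naive mice without that library.

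In naive mice, without surgery, the 10 genes again all had higher fitted levels with AP20187, and 3 of them, Vwf, Emcn and Tek, passed the test. Of all genes, 8.61% were called higher in this comparison, 2.57% lower and 11.2% in either direction. The median log2 fold change of the 10 was 1.29, against -0.07 over all genes, and 9 of the 10 had an unadjusted p under 0.05. Emcn was the only one whose groups did not overlap, where 9.39% of all genes lay wholly higher with the drug.

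Emcn was at 13.7, 10.5, 22.5, 33.8 and 10.2 CPM in naive vehicle mice 1 to 5 and at 38.5, 94.4, 43.5 and 56.7 CPM in naive AP20187 mice 1, 3, 4 and 5. Every treated mouse was above every vehicle mouse, and the log2 fold change was 1.68 (SE 0.36, adjusted p = 0.00718 by edgeR). Vwf was at 40.0, 24.4, 48.7, 220.4 and 27.6 CPM with vehicle and at 99.5, 499, 215 and 273 CPM with AP20187. Vehicle mouse 4 was within the treated range and the other 4 were below it. The log2 fold change of Vwf was 1.91 (SE 0.57, adjusted p = 0.0385 by edgeR). Tek was at 8.29, 6.33, 13.4, 32.1 and 7.16 CPM with vehicle and at 21.7, 45.0, 30.5 and 34.5 CPM with AP20187, with vehicle mouse 4 again among the treated mice. Its log2 fold change was 1.29 (SE 0.40, adjusted p = 0.0423 by edgeR).

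Pecam1, Cdh5 and Eng lay just outside the threshold. Pecam1 was at 27.5, 23.5, 42.1, 136 and 20.9 CPM in the vehicle mice and at 90.6, 192, 108 and 144 CPM in the treated mice, a difference of 1.42 on the log2 scale (SE 0.45, adjusted p = 0.0507 by edgeR). Cdh5 had one of 1.22 (SE 0.39, adjusted p = 0.0503) and Eng one of 1.54 (SE 0.50, adjusted p = 0.0517). Plvap, Kdr, Cldn5 and Flt1 had log2 fold changes of 1.29, 0.86, 0.74 and 0.63, with adjusted p of 0.132, 0.142, 0.171 and 0.259 by edgeR. For Flt1 vehicle mouse 4, at 51.2 CPM, was above all treated mice, which ran from 20.6 to 48.0 CPM.

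With naive vehicle 4 left out, 10 of the 10 genes passed the test, while 12.3% of all genes did. That mouse was singled out by its high levels of these same genes. Leaving it out raises their fold changes by construction, so the count is a description and no separate support. The log2 fold changes were then 1.13 to 2.95 (median 1.97), the smallest for Cldn5 and the largest for Vwf (SE 0.44, adjusted p = 0.000988 by edgeR). Pecam1 reached 2.23 and Eng 2.34. The 4 remaining vehicle mice, left once the mouse highest for these genes was removed, lay below every treated mouse for 10 of 10 genes. The share of all genes for which these 4 did so was not computed. Other single mice also decided calls: Emcn was called in all 9 fits that left out 1 naive mouse, Vwf in 4 and Tek in 2. Vwf was lost without AP20187 mouse 3 (1.47, adjusted p = 0.167) or vehicle mouse 1, 2, 3 or 5. Tek was lost without those mice or without AP20187 mouse 1 or 4. Cdh5 was gained without AP20187 mouse 5 (1.30, adjusted p = 0.0466). The calls of Vwf and Tek also ended with all 9 naive mice kept. With the naive groups fitted alone their adjusted p was 0.0807 and 0.0761, and with no filter on low counts 0.0602 and 0.0670 by edgeR. Tek was lost without TMM scaling as well (adjusted p = 0.0585), while Emcn was called in each of these fits. Of the erythroid, fibroblast and glial lists 0 genes were called in naive mice by edgeR, and 1, 2 and 0 had an unadjusted p under 0.05. With vehicle mouse 4 left out, 2 fibroblast genes were called higher.

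The drug's difference was compared between DMM and naive mice by the interaction term, the log2 fold change in DMM minus that in naive mice. None of the 10 passed edgeR's test, where 0.114% of all genes did, and 0 had an unadjusted p under 0.05; the smallest adjusted p was 0.924. DESeq2 and limma also called 0 of them. The interaction ran from -0.57 for Eng to 0.14 for Vwf, and without naive vehicle 4 from -1.37 to -0.64, all negative. These values do not show that the response was alike in both settings.

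Surgery itself was compared within each treatment, and these comparisons share their samples with those of the drug. Under vehicle, 0 of the 10 genes differed between DMM and naive mice by edgeR, DESeq2 or limma, 0 had an unadjusted p under 0.05, and 0% of all genes were called. Log2 fold changes ran from -0.67 for Vwf (SE 0.54) to 0.19 for Cldn5 (SE 0.33). Without naive vehicle 4 all 10 values were positive, 0.29 to 0.78, and again 0 passed. Under AP20187, 0 of the 10 passed either, 0 had an unadjusted p under 0.05, and 0.702% of all genes were called. All 10 values were below 0 there, from -0.71 for Eng (SE 0.49) to -0.19 for Cldn5 (SE 0.35). Naive AP20187 3 was the highest of the 19 libraries for 8 of the 10 genes, its summed level being 1251 CPM against 408 to 790 CPM in the other naive AP20187 mice.

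The 10 genes moved together from mouse to mouse. Over the 45 pairs, Pearson's r of log2 CPM across 19 libraries ran from 0.67 to 0.97 (median 0.91), and with each group's mean taken off it ran from 0.57 to 0.96 (median 0.86). These are descriptions over libraries whose cell composition differed, with neuron sums of 1607 to 18287 CPM. The part of composition in the correlations was not tested. Cldn5 was the least like the others, with a median r of 0.78, or 0.71 within groups. Tek, Eng and Pecam1 were close together at the other end, with medians of 0.94 each, or 0.91, 0.92 and 0.90 within groups. Naive AP20187 3 was among the highest 5 libraries for 10 of the 10 genes, and naive vehicle 4 and DMM AP20187 58 for 9. Naive vehicle 1, 2 and 5 were among the lowest 5 for all 10.

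**Figure D3:**
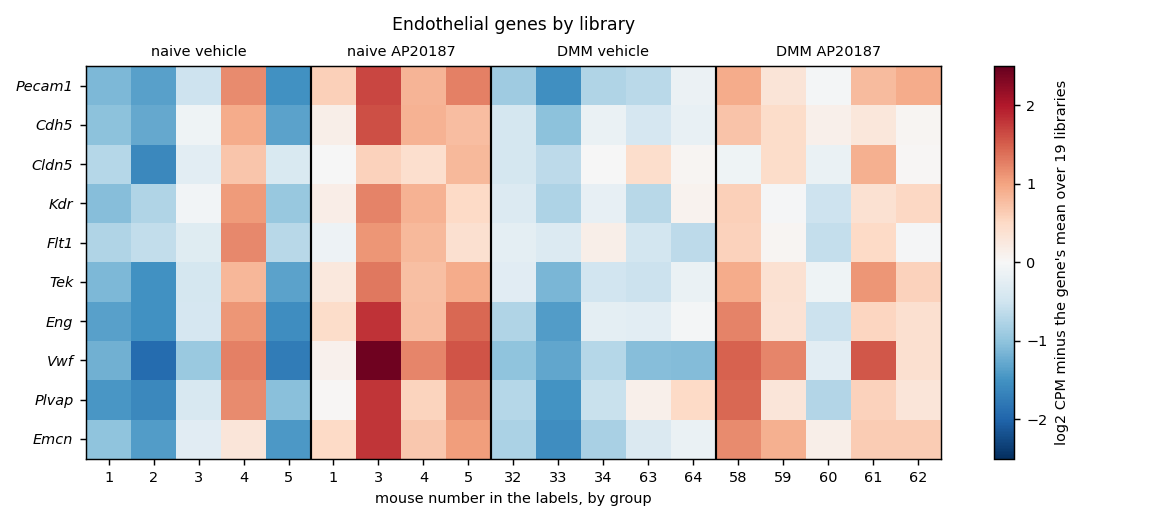
Log2 CPM of each gene minus its mean over the 19 libraries, by mouse and group. The columns of naive vehicle 4 and naive AP20187 3 are high for nearly all genes, and those of naive vehicle 1, 2 and 5 are low.

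The genes whose pattern was most like the mean of the 10 were found by the same correlation. Over the 19 libraries they were Mmrn2 (r = 0.98), Gpr182, Slco2a1, Tie1, Adcy4, Myof, Tmem252, Adgrl4, Rai14 and Tnfsf10 (r = 0.94). With the group means taken off they were Pgm5 (r = 0.98), Gpr182, Clec14a, Adcy4, Slco2a1, Mmrn2, Tie1, Nfib, Myof and Ptprb (r = 0.93). Mmrn2, Tie1, Clec14a and Ptprb were on the list of further endothelial genes, and 6 genes stood in both sets of 10.

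That list of 20 other pan-endothelial genes gave 3 called higher and 0 lower in DMM mice, and 6 higher and 0 lower in naive mice. Of all genes, 11.3% were called higher in DMM and 8.61% in naive mice, the background for these counts and for those of the lists that follow. Its log2 fold change was positive for 19 of 20 genes in both, with medians of 0.75 and 0.91. The gene below 0 in both, named after its values were seen, was Gpihbp1, which anchors lipoprotein lipase to capillaries (-0.80 and -0.53, neither called). Erg, the ETS factor of endothelial identity, which is also made in blood progenitors, rose by 2.02 in DMM (SE 0.40, adjusted p = 0.00254 by edgeR) and by 1.73 in naive mice (adjusted p = 0.0133). Cyyr1 rose by 1.43 and 2.20, and Esam, a junctional adhesion molecule, by 0.83 and 1.28. Without naive vehicle 4, 16 of the 20 were called higher in naive mice, while in DMM mice 8 were called higher against vehicle mice 32 to 34 alone and 1, Cyyr1, against vehicle mice 63 and 64 alone. Over all genes the shares called higher in these fits were 9.73%, 17.5% and 2.71%.

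Endothelial activation genes, the adhesion molecules that capture leukocytes from blood, were led by the selectins. Of 6 genes 5 were tested (Madcam1 was filtered out), and Selp, Sele, Icam1 and Vcam1 rose in both DMM and naive mice while Ackr1 did not pass in either. Selp, P-selectin, which lies with Vwf in Weibel-Palade bodies and in platelet granules, was at 2.25, 1.57, 2.72, 2.02 and 5.62 CPM in DMM vehicle mice 32, 33, 34, 63 and 64. It was at 90.7, 50.3, 41.8, 78.9 and 51.3 CPM in DMM AP20187 mice 58 to 62. The treated mice were far above the vehicle mice, a difference of 4.46 on the log2 scale (SE 0.54, adjusted p = 6.29e-05 by edgeR). In naive mice Selp was at 1.10, 1.06, 2.47, 6.55 and 0.842 CPM in vehicle mice 1 to 5 and ran from 77.9 to 155 CPM with AP20187. Naive vehicle 4 was the highest of its group here too, and lay below all treated mice. The log2 fold change was 5.61 (SE 0.58, adjusted p = 2.92e-05 by edgeR). Sele, E-selectin, ran from 0 to 0.868 CPM in DMM vehicle and 8.13 to 14.7 CPM in DMM AP20187 mice, and from 0.107 to 0.532 CPM in naive vehicle and 8.44 to 17.5 CPM in naive AP20187 mice. Its log2 fold changes were 4.59 (adjusted p = 0.000312) and 5.81 (adjusted p = 0.000139 by edgeR). Icam1 rose by 1.96 and 1.92, and Vcam1 by 1.30 and 1.43, in DMM and naive mice. When compared with DMM vehicle mice 63 and 64 alone, only the selectins of this list passed, Selp at 4.03 and Sele at 4.54. Without naive vehicle 4, the same 4 passed in naive mice.

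The megakaryocyte and platelet list of 9 genes, whose cells also make Selp and Vwf, had 3 genes called higher in DMM mice, Itga2b (1.78), Gp1ba (1.43) and Itgb3 (1.13). In naive mice 0 were called by edgeR and 4 had an unadjusted p under 0.05. Its summed level was 22.7 to 243 CPM in DMM vehicle, 128 to 407 CPM in DMM AP20187, 33.0 to 111 CPM in naive vehicle and 124 to 168 CPM in naive AP20187 mice. Treml1 of that list was at 0 counts in at least 1 DMM vehicle mouse. The count in DMM mice depended on the vehicle mice. Against vehicle mice 32 to 34 alone all 9 genes were called higher (median 2.86), and against vehicle mice 63 and 64 alone 0 were called by edgeR and 0 had an unadjusted p under 0.05 (median 0.47). With naive vehicle 4 left out, 1 gene, Itga2b, was called higher in naive mice (1.76, adjusted p = 0.0354 by edgeR), and 9 had an unadjusted p under 0.05. The part of these cells in the rise of Vwf and Selp was not tested.

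**Figure D4:**
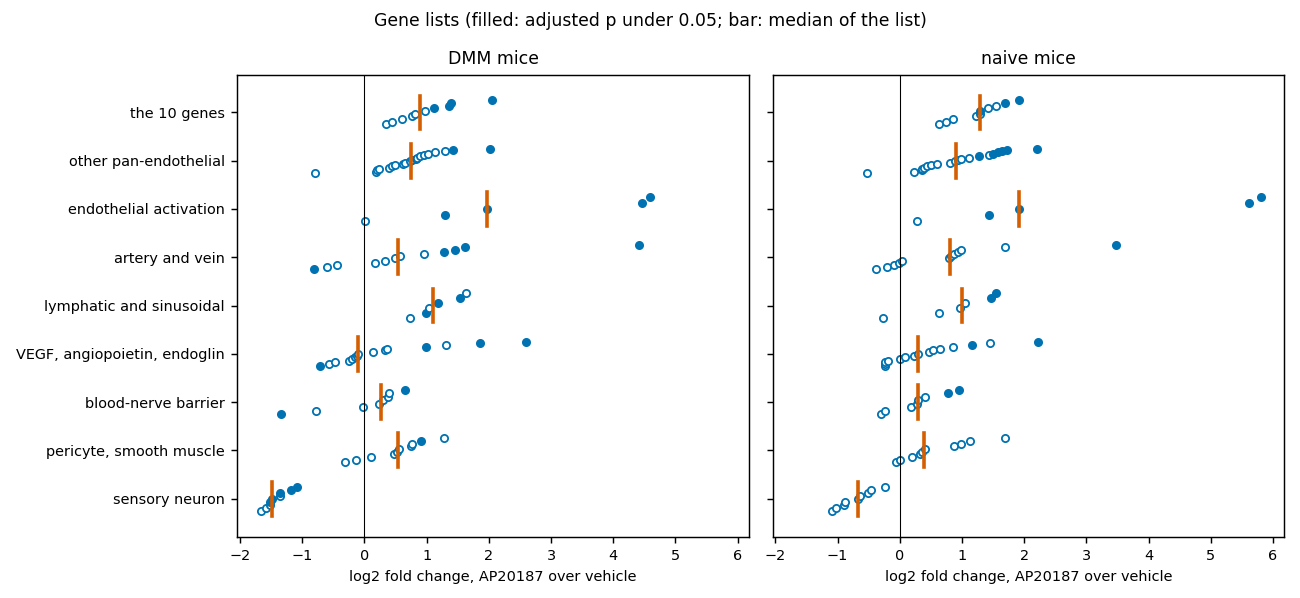
Log2 fold change of AP20187 over vehicle for the genes of 9 lists, 1 point per gene, in DMM mice (left) and naive mice (right), with filled points for an adjusted p under 0.05 by edgeR and a bar at the list's median. The activation list holds the selectins at the far right in both panels, and the sensory neuron genes all lie below 0.

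Genes of the VEGF, angiopoietin and endoglin pathways did not move as one. Of 15, 3 rose and 1 fell in DMM mice and 2 rose in naive mice, with medians of -0.10 and 0.30. The called genes that rose were receptors. Acvrl1, the BMP9 receptor ALK1 that works with endoglin, was at 8.01 to 33.2 CPM in DMM vehicle and 72.8 to 117 CPM in DMM AP20187 mice, or 2.60 on the log2 scale (SE 0.39, adjusted p = 0.000359 by edgeR). In naive mice it was at 7.76 to 24.9 CPM with vehicle and 43.6 to 89.7 CPM with AP20187 (2.22, adjusted p = 0.00243), with no overlap in either setting. Tgfbr2 rose by 0.99 and 1.15, and Flt4, the VEGF-C receptor, rose by 1.87 in DMM mice and had a log2 fold change of 0.65 in naive mice (adjusted p = 0.458). Of the ligands, Vegfa had 0.37 in DMM (adjusted p = 0.139) and 0.00 in naive mice, and Vegfb fell by 0.71 in DMM mice (adjusted p = 0.00782) and had 0.30 in naive mice (adjusted p = 0.275 by edgeR). In the fit without naive vehicle 4, 3 genes of the list rose in naive mice, among them Flt4 at 1.76 (adjusted p = 0.0116 by edgeR). With DMM vehicle mice 32 to 34 as the controls, 3 rose and 3 fell. There Flt4 had 1.81 (adjusted p = 0.0522) and Vegfa 0.14 (adjusted p = 0.562 by edgeR). Set against DMM vehicle mice 63 and 64 alone, 2 rose, Acvrl1 at 1.93 and Vegfa at 0.80 (adjusted p = 0.0374), and Vegfb fell. Flt4 there had 1.96 (adjusted p = 0.210) and Tgfbr2 0.55 (adjusted p = 0.486 by edgeR).

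Among 8 barrier genes, 1 rose and 1 fell in DMM mice and 2 rose in naive mice, or 3 without naive vehicle 4. With 11.3% of all genes called higher and 12.4% lower in DMM mice, the DMM counts of this list were close to the background. Slc2a1, the glucose transporter of barrier endothelium and perineurium, rose by 0.65 in DMM mice (adjusted p = 0.00470) and by 0.77 in naive mice (adjusted p = 0.00419 by edgeR). When compared with DMM vehicle mice 63 and 64 alone, it had 0.62 (adjusted p = 0.107 by edgeR). Lef1, a Wnt-pathway transcription factor that is also made by lymphocytes, went in opposite directions. It was at 2.61, 1.94, 3.21, 2.99 and 4.99 CPM in DMM vehicle mice 32, 33, 34, 63 and 64 and at 1.26, 1.67, 0.992, 1.42 and 0.866 CPM in DMM AP20187 mice 58 to 62. In naive mice it was at 2.14, 2.02, 2.53, 2.27 and 2.31 CPM with vehicle and at 3.67, 4.04, 4.79 and 5.01 CPM with AP20187. The treated mice lay wholly below the vehicle mice in DMM and wholly above them in naive mice. Lef1 fell by 1.34 in DMM (adjusted p = 0.00164) and rose by 0.95 in naive mice (adjusted p = 0.0242), and the interaction of -2.29 (SE 0.36) passed the test (adjusted p = 0.00888 by edgeR). Both calls held against DMM vehicle mice 63 and 64 alone (-1.67) and without naive vehicle 4 (0.96). Among AP20187 mice, Lef1 was lower in DMM than in naive mice (log2 difference -1.82, edgeR adjusted p = 0.00213), and so was Vegfb (-0.99, adjusted p = 0.0169).

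Of 12 arterial and venous genes, 4 rose and 1 fell in DMM mice and 1 rose in naive mice. Gja5, the arterial connexin 40, was at 0.265 to 1.15 CPM in DMM vehicle and 7.81 to 16.0 CPM in DMM AP20187 mice, or 4.41 on the log2 scale (SE 0.91, adjusted p = 0.00311 by edgeR). In naive mice it was at 0.299, 0.109, 0.373, 8.66 and 0.788 CPM in vehicle mice 1 to 5 and 4.15 to 8.63 CPM with AP20187. There the log2 fold change was 1.69 (adjusted p = 0.189), and 4.05 (adjusted p = 0.000348) without naive vehicle 4. Aplnr, the apelin receptor of veins and sprouting vessels, rose by 1.62 in DMM mice and by 3.47 in naive mice, and its interaction did not pass (adjusted p = 0.398 by edgeR). Notch1 and Bmx rose by 1.45 and 1.29 in DMM mice, and Hey1, a target of Notch chosen for mention after its value was seen, fell by 0.82. With naive vehicle 4 left out, 7 of the 12 rose in naive mice, Notch1 by 1.00 and Bmx by 1.41 among them. With DMM vehicle mice 32 to 34 as the controls, 5 rose and 1 fell. Set against DMM vehicle mice 63 and 64 alone, 0 were called higher by edgeR, 1 was called lower, Hey1, and 3 had an unadjusted p under 0.05. Gja5 there had 4.09 (adjusted p = 0.103 by edgeR) and Aplnr 0.99 (adjusted p = 0.261).

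Of 6 lymphatic and sinusoidal genes, 3 rose in DMM mice and 2 in naive mice. Lyve1, a hyaluronan receptor of lymphatic vessels and some macrophages, rose by 1.53 and 1.47. Pdpn rose by 0.98 and 1.55, and Stab1, a scavenger receptor also found on macrophages, rose by 1.18 in DMM mice. Prox1, the defining factor of lymphatic endothelium, had 0.74 in DMM mice (adjusted p = 0.378) and -0.27 in naive mice (adjusted p = 0.788 by edgeR). In the fit without naive vehicle 4, 4 of the 6 rose in naive mice, and Prox1 had 0.66 (adjusted p = 0.383 by edgeR). When compared with DMM vehicle mice 32 to 34 alone, 5 rose, and Prox1 had 1.03 (adjusted p = 0.264 by edgeR). With DMM vehicle mice 63 and 64 as the controls, 0 were called by edgeR and 1 had an unadjusted p under 0.05, and Prox1 had 0.43 (adjusted p = 0.831).

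Pericytes and smooth muscle are the other cells of the vessel wall. Of 10 genes 1 rose in DMM mice, Notch3, a receptor of mural cells, by 0.90 (adjusted p = 0.0435 by edgeR). With 11.3% of all genes called higher there, this count was close to the background. In naive mice 0 were called and 2 had an unadjusted p under 0.05. The log2 fold changes of the list ran from -0.32 to 1.28 in DMM mice, 8 of 10 above 0, with a median of 0.54. In naive mice they ran from -0.055 to 1.69, 9 of 10 above 0, with a median of 0.38. With naive vehicle 4 left out, 2 genes rose in naive mice. Set against DMM vehicle mice 32 to 34 alone, 2 rose, and against DMM vehicle mice 63 and 64 alone 0 were called by edgeR and 1 had an unadjusted p under 0.05, with Notch3 at 1.16 (adjusted p = 0.173). The summed level of the list was 299 to 410 CPM in DMM vehicle and 304 to 456 CPM in DMM AP20187 mice, against 146 to 280.0 CPM and 292 to 748 CPM for the 10 endothelial genes. The sums of the 10 endothelial genes did not overlap between treatments in DMM mice and those of the mural list did, and in naive mice the sums of both overlapped. The nearest DMM mice were vehicle 64, at 280.0 CPM, and AP20187 60, at 292 CPM. Vwf alone was 43.3 and 76.9 CPM in these, so the gap between them was smaller than their difference in Vwf. The lists were not compared by a test.

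**Figure D5:**
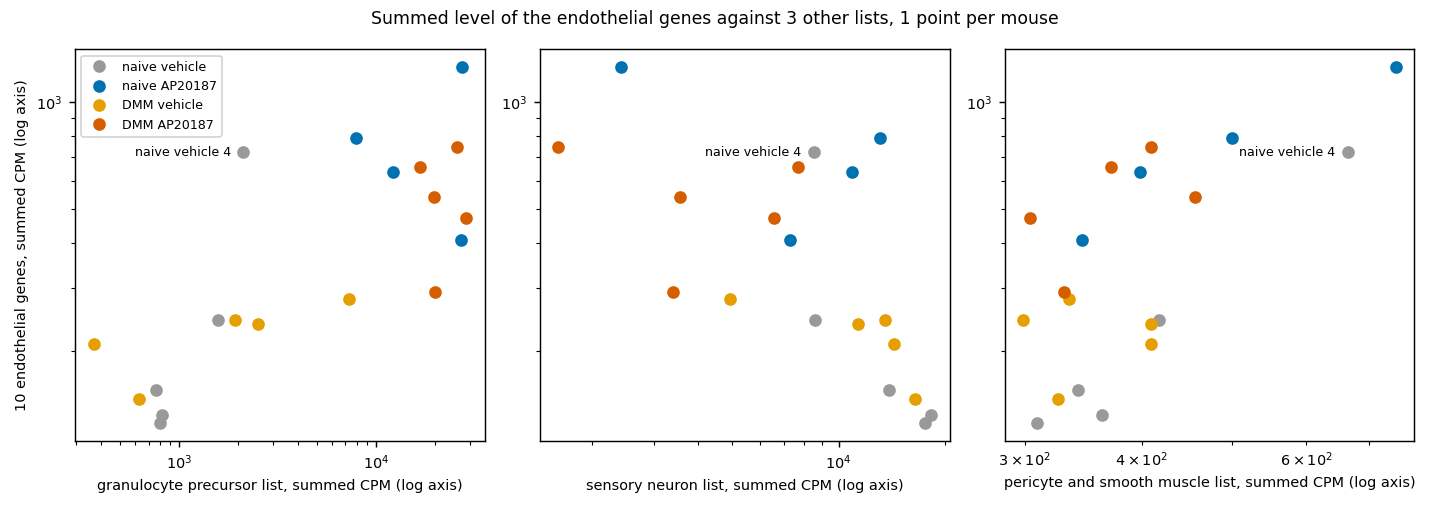
Summed CPM of the 10 endothelial genes (vertical, log axis) against the summed CPM of the granulocyte precursor, sensory neuron, and pericyte and smooth muscle lists (horizontal, log axes), 1 point per mouse. Naive vehicle 4 is high in endothelial and mural sums at a granulocyte precursor sum of 2125 CPM, below the 7942 CPM of the lowest naive AP20187 mouse.

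The genes lie on 8 chromosomes of GRCm39, in the positions the deposited table gives. Pecam1 spans chr11:106545043-106641454 on the minus strand, Tek chr4:94627526-94763213, Vwf chr6:125523737-125663642 and Emcn chr3:137046828-137137946, the last 3 on the plus strand, and none of these 4 overlapped another gene. Flt1 and Kdr lie on the minus strand of chromosome 5, at chr5:147498414-147662821 and chr5:76093487-76139118, and Cldn5 at chr16:18595597-18597012 on the plus strand, also free of overlap. Cdh5 (chr8:104828257-104871143, plus strand) and Plvap (chr8:71950409-71964396, minus strand) each overlapped 1 gene on the other strand, and Eng (chr2:32536607-32572670, plus strand) overlapped 4 genes, 3 of them small genes on its own strand. The libraries were stranded, but whether counting used the strand is not given in the sources used here, so values of Cdh5, Plvap and Eng could hold reads of these neighbours.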

How the data were processed

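RNA sequencing of ganglia from 19 mice gave stranded poly(A) libraries, per the labels. Per gene, the authors deposited raw counts as whole numbers, and FPKM, which corrects for transcript length and sequencing depth. The submitters' processing notes name cutadapt, HISAT2, StringTie and GRCm39, with no versions or roles. Counts were fitted with edgeR 4.0.16 (R 4.3.3): TMM normalization, filterByExpr with minimum count 10 (22778 genes kept), 1 model of 4 groups with 15 residual degrees of freedom, and two-sided quasi-likelihood F tests with Benjamini-Hochberg adjustment over all genes tested, threshold 0.05. SE is the log2 fold change over the square root of F. Alternatives used DESeq2 1.42.0 and limma 3.58.1 (voom, and log2 of FPKM plus 1 or 0.1). The script was tested on simulated data. Totals per library differed between the deposited tables by 1 count in 1 library.

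All 10 endothelial genes are named. From each other list at most 4 genes past the threshold are named by rule, those with the largest change in DMM mice. Gpihbp1, Hey1, Vegfa, Prox1, Ackr1, Madcam1 and Treml1 are named outside this rule. The members and lists were chosen with earlier results of these data known, so counts over them are descriptions.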

Additional observations from a re-analysis of the deposited data

Results flagged for a closer look

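Naive vehicle 4 lay far from the other 4 vehicle mice in 6 of the 10 genes by Dixon's criterion, the gap to the next mouse over the whole range of the group. The values were 136.4 CPM for Pecam1, 51.19 CPM for Flt1, 32.07 CPM for Tek, 75.8 CPM for Eng, 220.4 CPM for Vwf and 67.47 CPM for Plvap. The gap was 0.817, 0.873, 0.726, 0.776, 0.876 and 0.778 of the range in that order. In 40 groups of values checked (10 genes in 4 groups) these were the 6 found, all in 1 library. Chance gives about 1 in 20 such groups, and the 10 genes are not independent of each other.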

How the results depend on the processing

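In DMM mice 4 of the 10 genes were called, with 23.8% of all genes. The count was 6 with the DMM groups fitted alone (19.8% of all genes), 5 with voom and sample weights (46.9%), 4 with DESeq2 (19.3%), without TMM (24.7%), with limma on log2(FPKM + 1) (28.8%) and log2(FPKM + 0.1) (27.9%) and against vehicle mice 32 to 34 only (36.3%). It was 2 with no filter on low counts (11.3%), 0 against vehicle mice 63 and 64 only (4.73%) and 2 to 4 when 1 mouse was left out (14.2% to 34.0%). In naive mice the count was 3, with 11.2% of all genes. It was 6 with DESeq2 (12.0%), 6 and 6 with limma on log2(FPKM + 1) (19.3%) and log2(FPKM + 0.1) (19.7%), and 10 with voom and sample weights (19.9%). It was 2 without TMM (10.8%), 1 with the naive groups fitted alone (13.0%), 1 with no filter (4.89%), and 1 to 10 when 1 mouse was left out (4.24% to 14.7%). The replicate block on naive mice of shared number gave 1 (8.66%), and the same mice without the block, an alternative chosen after seeing the data, also gave 1 (6.80%). Same-numbered mice had correlations of 0.023, 0.30, -0.082 and 0.18, and differently numbered mice of -0.26 to 0.20. The labels do not say that numbers pair the samples, and these few values cannot decide it. The block was used in no other result.

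Direction held in all 190 values of the 10 genes under 19 alternatives in DMM and all 180 under 18 in naive mice. It turned in 44 of 190 values for DMM against naive under vehicle and 21 of 270 for the interaction, none of them called. For surgery under vehicle, Cldn5 was -0.077 with vehicle mice 32 to 34 only and -0.0098 to 0.58 when 1 mouse was left out. Vwf was 0.26 with voom and -0.89 to 0.37 when 1 mouse was left out, the highest without naive vehicle 4. The Vwf interaction was -0.17 and -0.11 with limma on FPKM (pseudocounts 0.1 and 1), -0.82 with voom, and -0.90 to 0.60 when 1 mouse was left out, the lowest without naive vehicle 4. The cause of these changes was not tested.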
